A study of Homo sapiens with 4 samples.

Results

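The BAF subunit genes are the 31 human genes that encode the ATPases, core subunits, targeting subunits and accessory subunits of the BAF (SWI/SNF) chromatin remodelling complexes, with ACTB, BCL11A and BCL11B included. They were taken by name, by a rule that used no measured value, and all 31 were found among 19974 protein-coding genes on chromosomes 1 to 22 and X. For each gene, peaks were sought within 1 kb of either annotated end of the gene (the gene-end window), and over the gene with 10 kb on either side (the locus).

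The peaks mark binding of BAF45D, the product of DPF2, measured by CUT&Tag, in which an antibody brings a transposase to its target so that the DNA beside it is tagged and sequenced. Spinal cord neural stem cells (NSC) were made from H9, an established human embryonic stem cell line, by culture with inhibitors of BMP, TGF-beta, Notch and GSK3 signalling together with FGF2 and FGF8, then in a maintenance medium with an agonist of Hedgehog signalling, and last with FGF2 and EGF. They were compared with undifferentiated H9 embryonic stem cells (ESC), grown in mTeSR1 medium on Matrigel. Each cell type had 2 libraries of 100000 cells each, called NSC1, NSC2, ESC1 and ESC2. Both cell types come from 1 line, the labels name no genetic change in either, and the labels do not say whether the libraries of a cell type came from separate cultures.

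BAF complexes use the ATPase SMARCA4 or SMARCA2 to slide or evict nucleosomes, and they come in 3 forms: canonical BAF with ARID1A or ARID1B, PBAF with ARID2 and PBRM1, and non-canonical BAF with BRD9 and BICRA or BICRAL. Several subunits are exchanged for paralogs when neural progenitors become neurons, as first worked out in mouse. Progenitors use ACTL6A, SS18 and PHF10 or DPF2, and neurons use ACTL6B, SS18L1 and DPF1 or DPF3. BAF45D peaks at these genes therefore show where a subunit of the complex was found at the genes of the complex itself. A peak is not a measure of the gene's expression.

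The promoters of the genes that the comparison of ATPases and of paralogs turns on are shown here, as the RefSeq sequence of GRCh38.p14 from 250 bases before to 50 bases after the annotated start, written 5′ to 3′ on the strand of the gene. Capitals mark matches, on either strand, to any of 7 short motifs. These were the GC box GGGCGG recognised by Sp family factors, the CCAAT box core ATTGG, the ETS factor core CCGGAAG, the TATA box TATAAA, the AP-1 site TGACTCA, the CREB-type site TGACGTC, and the NRF1 core GCATGCG. A peak summit was found by both NSC libraries inside the printed stretch at SMARCA2, SMARCA4 and DPF3, the SS18 summits lay just downstream of it, and DPF2 and SS18L1 had no peak at their start in any library.
SMARCA2, chr9:2015097-2015396, plus strand: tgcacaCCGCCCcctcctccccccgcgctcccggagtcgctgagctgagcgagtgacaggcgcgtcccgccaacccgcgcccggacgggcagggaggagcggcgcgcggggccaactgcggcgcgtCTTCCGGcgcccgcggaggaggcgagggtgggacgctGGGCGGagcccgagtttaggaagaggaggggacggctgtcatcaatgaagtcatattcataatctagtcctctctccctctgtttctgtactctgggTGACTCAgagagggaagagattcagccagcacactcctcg
SMARCA4, chr19:10960780-10961079, plus strand: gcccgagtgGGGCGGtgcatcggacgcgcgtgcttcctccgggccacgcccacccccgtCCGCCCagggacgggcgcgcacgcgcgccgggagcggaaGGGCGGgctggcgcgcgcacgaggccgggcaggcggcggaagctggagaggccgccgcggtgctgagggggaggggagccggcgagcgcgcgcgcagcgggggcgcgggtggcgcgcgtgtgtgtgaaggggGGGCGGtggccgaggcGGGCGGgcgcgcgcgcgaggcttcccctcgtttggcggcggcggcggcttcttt
DPF3, chr14:72894052-72894351, minus strand: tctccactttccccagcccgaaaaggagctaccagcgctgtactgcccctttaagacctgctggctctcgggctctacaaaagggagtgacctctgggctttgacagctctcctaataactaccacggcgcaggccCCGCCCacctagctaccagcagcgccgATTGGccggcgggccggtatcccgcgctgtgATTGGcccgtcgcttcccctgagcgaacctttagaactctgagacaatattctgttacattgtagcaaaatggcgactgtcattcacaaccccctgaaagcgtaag
DPF2, chr11:65333602-65333901, plus strand: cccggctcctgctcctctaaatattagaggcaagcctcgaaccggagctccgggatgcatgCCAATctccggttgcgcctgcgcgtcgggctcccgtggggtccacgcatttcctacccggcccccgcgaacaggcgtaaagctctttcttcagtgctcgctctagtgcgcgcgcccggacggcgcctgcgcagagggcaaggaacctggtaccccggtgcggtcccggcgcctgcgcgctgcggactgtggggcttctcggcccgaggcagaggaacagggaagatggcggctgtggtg
SS18, chr18:26091170-26091469, minus strand: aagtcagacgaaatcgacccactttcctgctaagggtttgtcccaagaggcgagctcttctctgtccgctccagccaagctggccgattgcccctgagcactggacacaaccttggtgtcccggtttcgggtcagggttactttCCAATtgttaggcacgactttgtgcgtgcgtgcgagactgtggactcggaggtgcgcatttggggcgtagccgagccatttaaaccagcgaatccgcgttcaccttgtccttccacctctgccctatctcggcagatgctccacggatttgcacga
SS18L1, chr20:62143519-62143818, plus strand: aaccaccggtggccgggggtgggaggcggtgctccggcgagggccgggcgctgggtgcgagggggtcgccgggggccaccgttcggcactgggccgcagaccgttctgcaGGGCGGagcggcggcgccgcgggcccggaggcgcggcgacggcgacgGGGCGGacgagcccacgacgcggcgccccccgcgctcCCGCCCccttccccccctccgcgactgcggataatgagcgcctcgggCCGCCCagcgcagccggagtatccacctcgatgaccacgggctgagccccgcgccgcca
The GC box was in the promoters of SMARCA2, SMARCA4, DPF3 and SS18L1 above, and not in those of DPF2 and SS18. ATTGG was in those of DPF3, DPF2 and SS18.

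The ESC libraries had more reads and shorter peak lists than the NSC libraries. The headers gave 5566407 and 5377831 tags for NSC1 and NSC2, against 20734829 and 18953543 for ESC1 and ESC2, and the lists held 29783 and 24669 peaks in NSC1 and NSC2, against 4204 and 12533 in ESC1 and ESC2. Every count of genes below depends on these list lengths, and a cell type difference in binding and a difference in how well the assays worked cannot be told apart from peak lists. As a check of the labels, 6 of 7 neural stem cell genes (NES, SOX1, PAX6, SOX2, MEIS1, MEIS2, ZIC1) had a gene-end peak in each NSC library and 1 of 7 in each ESC library. Of 6 pluripotency genes (POU5F1, NANOG, SOX2, LIN28A, DNMT3B, L1TD1), 2 had one in each NSC library, 3 in ESC1 and 4 in ESC2. POU5F1 and NANOG had none in any library. Of 6 neuronal genes (ACTL6B, DPF1, TUBB3, STMN2, SYN1, RBFOX3), 1 had one in NSC1, 0 in NSC2, 0 in ESC1 and 1 in ESC2. Of all protein-coding genes, 42.8% had one in NSC1, 38.1% in NSC2, 6.67% in ESC1 and 22.8% in ESC2. These marker counts thus depend on list length too.

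Most BAF subunit genes carried BAF45D at a gene end in NSC and few did in ESC, where protein-coding genes as a whole were also called less often. The gene-end window held a peak at 22 of 31 genes in NSC1 (71.0%, 95% Wilson interval 53.4 to 83.9) and at 20 in NSC2 (64.5%, 46.9 to 78.9). It did so at 4 in ESC1 (12.9%, 5.13 to 28.9) and at 8 in ESC2 (25.8%, 13.7 to 43.2). The background, the share of all protein-coding genes called in the same way, was 42.8% in NSC1, 38.1% in NSC2, 6.67% in ESC1 and 22.8% in ESC2. Intervals cover counting error over genes only, and genes are not replicates. NSC libraries averaged 21 ± 1.41 genes and ESC libraries 6 ± 2.83 genes (SD, n = 2 each), and the cell types did not overlap. The background shares did not overlap between the cell types either, and the BAF shares in ESC were not below the background. With 2 libraries against 2, an exact two-sided permutation test cannot go below p = 0.333.

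**Figure D1:**
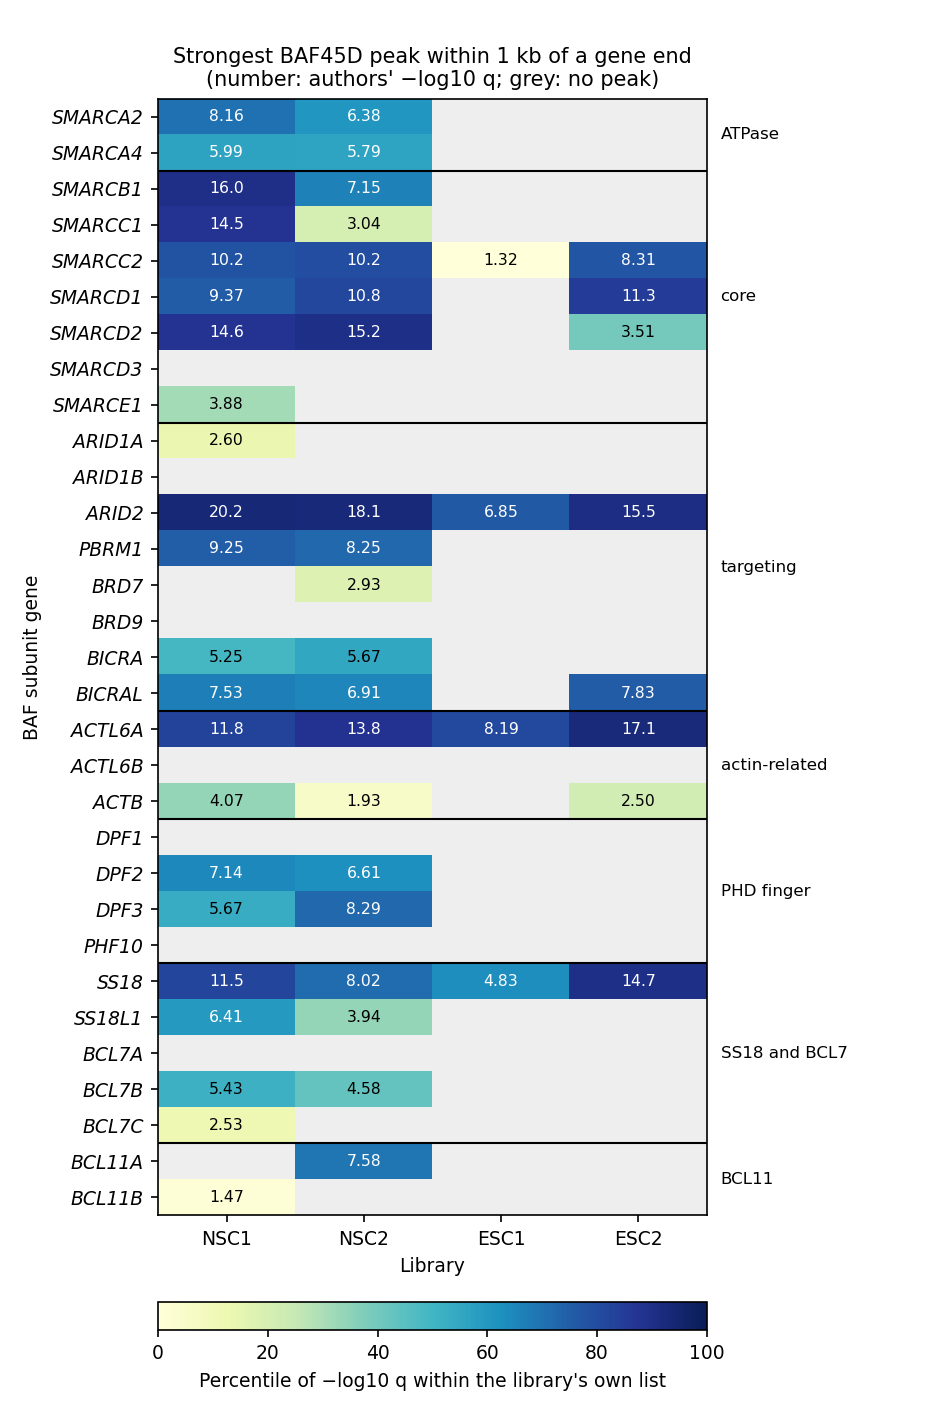
Strongest BAF45D peak in the gene-end window of each of the 31 BAF subunit genes (rows, grouped by role) in each library (columns), with the authors' −log10 q printed and its percentile within that library's own list as colour, and grey where there was no peak. Both NSC columns are filled at 18 genes, and both ESC columns at ARID2, ACTL6A, SS18 and SMARCC2.

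Genes were then classed by the libraries that called them. The NSC-only class, called at a gene end by NSC1 and NSC2 and by neither ESC library, held 10 BAF subunit genes (32.3%, background 16.2%), and the converse ESC-only class held 0 (background 0.245%). A peak in all 4 libraries was found at 4 genes (12.9%, background 5.88%), and no peak in any library at 7 (22.6%, background 51.1%). The other 10 genes (32.3%, background 26.6%) had mixed patterns. Of these, SMARCD1, SMARCD2, BICRAL and ACTB had peaks in NSC1, NSC2 and ESC2 (12.9%, background 12.4%). SMARCE1, ARID1A, BRD7, BCL7C, BCL11A and BCL11B had a peak in 1 NSC library alone (19.4%, background 9.61%). Over all classes, 18 genes were called in both NSC libraries (58.1%, background 34.5%). Without ESC1, the shortest list, 8 genes were shared by all remaining libraries, and without NSC1, 11 genes had no peak.

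The excess over the background was smaller when the 5′ end alone was counted, which also left out the genes without a listed start. At the 5′ end alone, for the 26 genes with a RefSeq start, 14 genes in NSC1 (53.8%, background 43.9%) and 12 in NSC2 (46.2%, background 39.0%) had a peak. In ESC1 there was 1 (3.85%, background 6.77%) and in ESC2 there were 4 (15.4%, background 23.2%). The NSC-only class then held 6 of 26 genes (23.1%, background 16.3%), the ESC-only class 0 (background 0.190%), the class of all 4 libraries 1, SS18 (3.85%, background 6.13%), and 10 had no 5′ peak in any library (38.5%, background 50.6%). The 5 genes without a listed start (ARID2, SMARCC1, SMARCC2, ACTB, ACTL6A) all had gene-end peaks in both NSC libraries, so leaving them out lowers the share by itself. In ESC1 and ESC2 every call lost from the gene-end count was at one of these genes. By the choice of end, only SMARCB1, DPF2 and SS18L1 were lost in NSC1, and BRD7, DPF2 and SS18L1 in NSC2. All 4 Wilson intervals at the 5′ end held the background share.

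**Figure D2:**
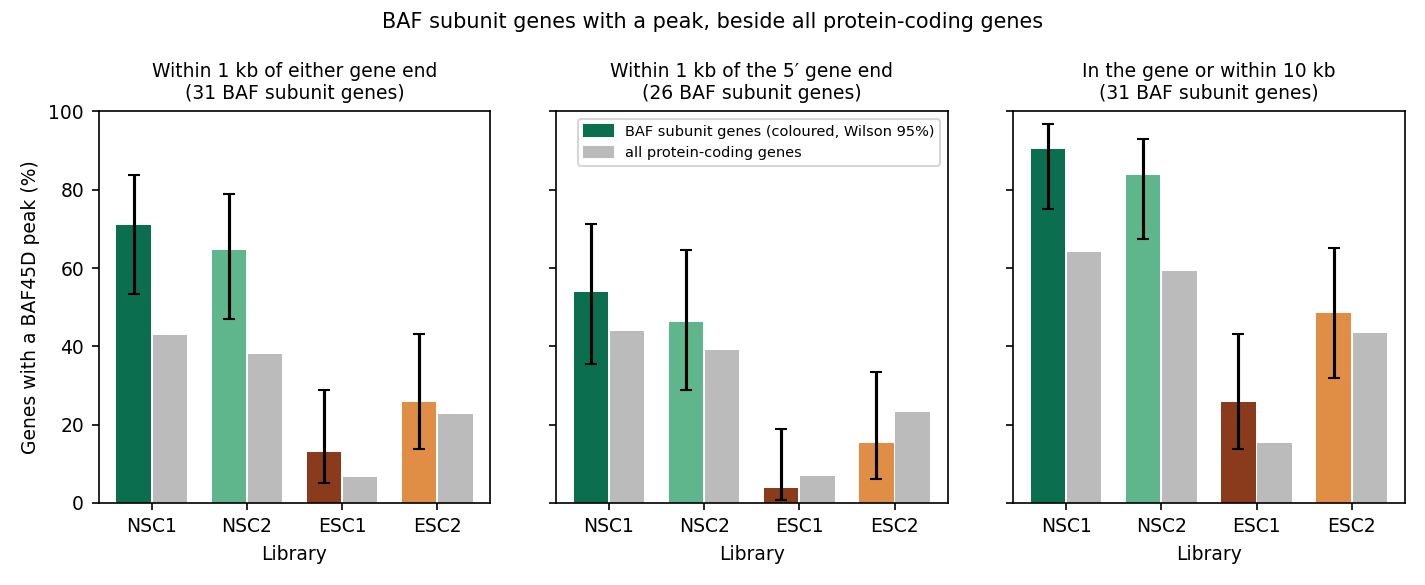
Percent of BAF subunit genes (coloured bars, with 95% Wilson intervals for counting error) and of all protein-coding genes (grey bars) with a BAF45D peak in each library, for the gene-end window, the 5′ end alone and the locus. The coloured bars stand above the grey ones in NSC1 and NSC2 in all 3 panels, by the least at the 5′ end.

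The lists differ in length, so the count was repeated with the 4204 strongest peaks of each library. Gene-end peaks were then left at 4 of 31 BAF subunit genes in NSC1 (background 11.3%), 3 of 31 in NSC2 (background 10.8%), 4 of 31 in ESC1 (background 6.67%) and 6 of 31 in ESC2 (background 13.1%). In both NSC libraries the share of BAF subunit genes was then close to the background. The NSC-only class then held 1 gene, SMARCD2 (background 2.20%), SMARCC2 and SS18 were ESC-only (background 1.26%), ARID2 alone was shared by all 4 libraries (background 3.70%), and 22 genes had no peak (background 80.8%). The NSC-only calls at both ATPases, PBRM1, DPF2, DPF3, SS18L1, BCL7B and BICRA rest on peaks below that rank. SMARCB1 and SMARCC1 kept a peak in NSC1 alone, so no NSC-only gene of the full lists kept its class. SMARCD2 had an ESC2 peak in the full lists. Within their own lists, the strongest gene-end peaks of the BAF subunit genes had a median percentile of 65.8 in NSC1 and 65.6 in NSC2, against 68.6 and 66.1 for all genes called in NSC1 and NSC2. In ESC1 and ESC2 the medians were 69.7 over 4 genes and 81.2 over 8 genes, against 64.4 and 71.2 for all genes called.

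The ATPases, the motors of the complex, were both bound at their start in NSC, with no ESC peak there. SMARCA2 had peaks with summits 186 bp upstream of its start in NSC1 and 196 bp upstream in NSC2 (chr9:2014990-2015488), with −log10 q of 8.16 and 6.38 and pileups of 17 and 13 reads. SMARCA4 had summits 110 bp upstream in NSC1 and 122 bp upstream in NSC2 (chr19:10960736-10961308), with −log10 q of 5.99 and 5.79 and pileups of 12 and 11. These strengths are the authors' values, each relative to its own library, and ranked at percentiles of 70.3 and 60.8 for SMARCA2 and 56.3 and 56.2 for SMARCA4 in NSC1 and NSC2. The paralogs thus had the same pattern of calls at the start, with summits less than 200 bp upstream of the start. They differed inside the gene: SMARCA4 had no other peak at its locus, and SMARCA2 had a further NSC-only region 128 kb downstream of its start (4.04 and 4.75 in NSC1 and NSC2) and a peak 92.6 kb downstream in ESC1 alone (6.35).

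Of the 7 genes grouped here as core subunits, 5 were called at a gene end in both NSC libraries, against 34.5% of all protein-coding genes. SMARCC1 and SMARCC2, which encode the scaffold proteins BAF155 and BAF170, differed in ESC. SMARCC1 was NSC-only, with summits 88 and 17 bp from its higher-coordinate end in NSC1 and NSC2 (chr3:47781804-47782334) and −log10 q of 14.5 and 3.04. SMARCC2 was called in all 4 libraries (chr12:56189618-56190522), with −log10 q of 10.2, 10.2, 1.32 and 8.31 in NSC1, NSC2, ESC1 and ESC2. The ESC1 peak was among the weakest of its list, at percentile 0.238. The SMARCC2 summits in NSC1, ESC1 and ESC2 lay 803, 788 and 802 bp from the gene and 78, 93 and 79 bp from the tRNA gene TRS-CGA4-1. Only the NSC2 summit was nearer to SMARCC2, at 298 bp, against 583 bp from the tRNA gene. By distance, the calls in NSC1, ESC1 and ESC2 cannot be assigned to SMARCC2, and neither can the difference from SMARCC1 in ESC.

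SMARCD1, SMARCD2 and SMARCD3 encode alternative BAF60 subunits, which contact transcription factors, and SMARCD1 and SMARCD2 had the same pattern of calls. SMARCD1 had a peak 150, 205 and 184 bp upstream of its start in NSC1, NSC2 and ESC2, with −log10 q of 9.37, 10.8 and 11.3. SMARCD2 had one 298, 330 and 338 bp upstream in NSC1, NSC2 and ESC2, with 14.6, 15.2 and 3.51. SMARCD3 had no peak in its locus in any library. SMARCE1, which encodes the HMG-box subunit BAF57, was called in NSC1 alone (3.88, 505 bp upstream). SMARCB1, which encodes the core subunit BAF47, was NSC-only through a peak beyond its 3′ end, described with the other 3′ peaks.

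Among the genes that set the form of the complex, ARID2 of PBAF had the strongest gene-end peak of the list in both NSC libraries. Its −log10 q was 20.2, 18.1, 6.85 and 15.5 in NSC1, NSC2, ESC1 and ESC2, with summits 738 to 792 bp outside the lower-coordinate end (chr12:45728726-45729140). A second region 1947 to 2044 bp outside the same end (chr12:45727490-45728150) was also called in all 4 libraries, with 16.0, 13.0, 3.22 and 17.4 in NSC1, NSC2, ESC1 and ESC2. ARID2 and its flank held 2 of the 5 regions at BAF loci that all 4 libraries called. PBRM1, the bromodomain subunit of PBAF, was NSC-only at its start, with summits 30 and 4 bp upstream and −log10 q of 9.25 and 8.25 in NSC1 and NSC2 (chr3:52685531-52686257). The start of GNL3, a nucleolar protein gene, was 23 bp from the PBRM1 summit in NSC1, so the 2 genes share this site. BRD7, also of PBAF, had a weak peak at its 3′ end in NSC2 alone (2.93) and an NSC-only region inside the gene 7625 and 7573 bp from that end (13.2 and 8.95 in NSC1 and NSC2).

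The ARID1 genes of canonical BAF were bound mainly away from their ends. ARID1A had a gene-end peak in NSC1 alone (2.60). A region 3001, 2865 and 2969 bp upstream was called in NSC1, NSC2 and ESC2 (3.71, 1.91 and 2.91), and the locus also held NSC-only regions 75.9 and 75.7 kb downstream of the start (5.89 and 2.31 in NSC1 and NSC2) and 5903 and 5805 bp past the 3′ end (4.02 and 4.20). ARID1B, which is 435 kb long, had no peak in the gene-end window of any library but 16 peaks at its locus in NSC1 and 11 in NSC2, against 0 in ESC1 and 1 in ESC2. Per 100 kb of locus this was 3.52 in NSC1, 2.42 in NSC2, 0 in ESC1 and 0.220 in ESC2. The medians of 771 protein-coding genes of at least 300 kb were 0.986 in NSC1, 0.777 in NSC2, 0 in ESC1 and 0.241 in ESC2, and 11 of these genes in NSC1 and 26 in NSC2 were denser than ARID1B. All 8 ARID1B regions called in both NSC libraries were NSC-only. The strongest lay 295 kb downstream of the start (chr6:157070489-157071273), with −log10 q of 18.4 in NSC1 and 22.8 in NSC2, and it ranked first in both. The region ranked second in NSC1 lay 178 kb downstream (chr6:156953198-156953943), with 16.6 in NSC1 and 9.78 in NSC2. The region ranked second in NSC2 lay 412 kb downstream (chr6:157187143-157187790), with 13.7 in NSC1 and 20.6 in NSC2. A second RefSeq start of ARID1B, 1352 bp inside the gene, had a peak in NSC1 (5.12) and none in NSC2, ESC1 or ESC2. The 1 ESC2 peak was weak (2.74) and overlapped a peak of NSC1 (2.84).

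**Figure D3:**
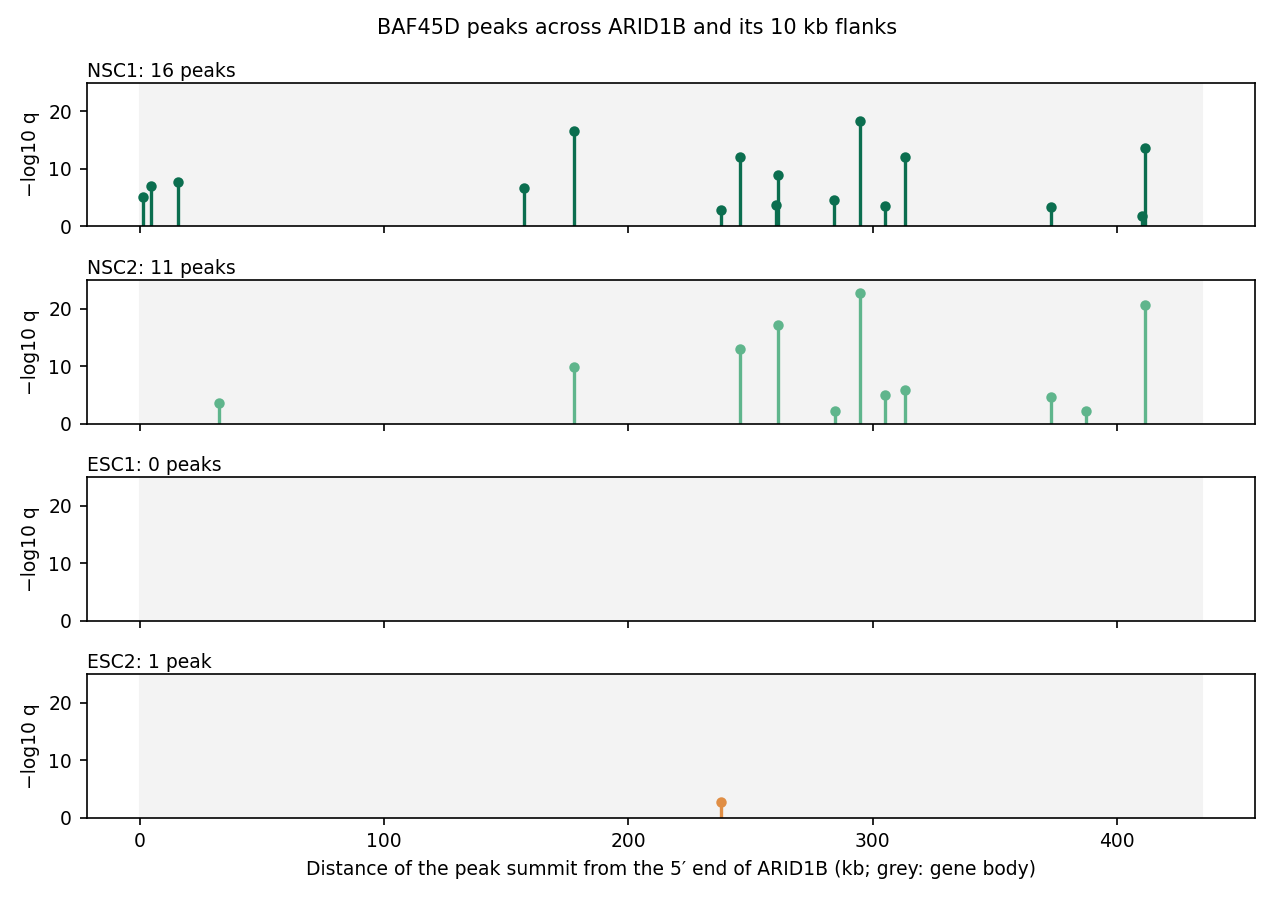
Position of each BAF45D peak summit across ARID1B (horizontal axis, kb from the 5′ end, with the gene body in grey) and the authors' −log10 q within the library's list (vertical axis), in 1 panel per library. NSC1 has 16 peaks and NSC2 has 11, many at the same positions, while ESC1 has 0 and ESC2 has 1.

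Of the non-canonical BAF genes, BRD9 had no peak in its locus in any library. BICRA was NSC-only at its start, with summits 566 and 500 bp downstream and −log10 q of 5.25 and 5.67 in NSC1 and NSC2, and the start of the antisense gene BICRA-AS2 lay 133 bp from the NSC1 summit. A region about 7.8 kb upstream of BICRA was called in NSC1, NSC2 and ESC2 (11.1, 12.0 and 14.0). ESC1 had a peak 52.0 kb inside the gene (3.07), so the locus was called in all 4 libraries. BICRAL had a peak at its lower-coordinate end in NSC1, NSC2 and ESC2, with summits 18, 6 and 1 bp from that end and −log10 q of 7.53, 6.91 and 7.83. Its listed RefSeq start lies 648 bp inside the gene, and weaker peaks were called 690, 647 and 380 bp inside (4.45, 6.01 and 3.69 in NSC1, NSC2 and ESC2). The start of the neighbour TBCC lay 218 bp from the NSC1 summit at the end of BICRAL. At a second RefSeq start of BICRAL, 35.7 kb inside the gene, the peaks were NSC-only (7.79 and 3.47 in NSC1 and NSC2).

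Between the paralogs of the actin-related subunit, the progenitor gene was bound in all libraries and the neuronal gene in none at its ends. Of all protein-coding genes, 5.88% had a gene-end peak in all 4 libraries and 51.1% had one in none. ACTL6A had peaks with summits within 127 bp of its lower-coordinate end (chr3:179562596-179563322), with −log10 q of 11.8, 13.8, 8.19 and 17.1 and percentiles of 82.7, 87.9, 80.9 and 92.2 in NSC1, NSC2, ESC1 and ESC2. ACTL6B had no peak in its gene-end window, and the nearest peak at its locus lay 9062 bp past its 3′ end in ESC2 alone (7.76). ACTB, the actin of the complex, had gene-end peaks in NSC1 (4.07), NSC2 (1.93) and ESC2 (2.5), the last at the opposite end of the gene. Outside its higher-coordinate end lay 2 closely spaced regions. The nearer, chr7:5531006-5531600, was NSC-only, and its NSC2 peak (1.93) was at percentile 5.75 of its list. The farther, chr7:5531720-5532274, was the 1 ESC-only region of all BAF loci. Its summits lay 1336 and 1361 bp from that end, with −log10 q of 3.06 and 5.14 in ESC1 and ESC2. All 4 libraries thus had a peak at the ACTB locus. At −log10 q of at least 5, ACTB had no gene-end peak in any library and no region was ESC-only, so a difference in position between the cell types rests on weak calls.

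The SS18 paralogs differed in the same way at their starts. Of all protein-coding genes with a listed start, 6.13% had a 5′ peak in all 4 libraries and 50.6% had one in none. SS18 was called in all 4 libraries 256 to 499 bp downstream of its start (chr18:26090544-26091152), with −log10 q of 11.5, 8.02, 4.83 and 14.7 in NSC1, NSC2, ESC1 and ESC2, and also had an NSC-only region 33.6 kb inside the gene (11.7 and 7.30). SS18L1, which encodes the neuronal subunit CREST, had no peak at its start in any library. Its NSC-only call came from a peak beyond the 3′ end.

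None of the 4 PHD finger subunit genes had a gene-end peak in ESC. Of all protein-coding genes, 23.1% had one in at least 1 ESC library, so most genes had none there. DPF3, a subunit of neuronal BAF that also serves heart and muscle, was NSC-only at its start, with summits 135 and 156 bp upstream (chr14:72894012-72894418), −log10 q of 5.67 and 8.29 and pileups of 14 and 14 in NSC1 and NSC2. DPF1, the other neuronal paralog, had no gene-end peak but an NSC-only region inside the gene 3285 and 3037 bp from its 3′ end (chr19:38213893-38214514), with −log10 q of 9.91 and 14.0. PHF10, the progenitor and PBAF subunit, had no gene-end peak and an NSC-only region 1755 and 1812 bp past its 3′ end (4.04 and 7.41 in NSC1 and NSC2). DPF2, which encodes BAF45D itself, had no peak at its own start in any library. All 4 loci were NSC-only, as were 19.7% of the loci of all protein-coding genes. The only peak at the DPF2 locus was the one beyond its 3′ end, beside TIGD3, described with the other 3′ peaks. Neighbouring genes were sought only for gene-end regions, and so not for the DPF1 and PHF10 regions.

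The remaining accessory genes were called less evenly. BCL7B was NSC-only 513 bp downstream of its start in both libraries (5.43 and 4.58 in NSC1 and NSC2). BCL7C had a gene-end peak in NSC1 alone (2.53) and NSC-only regions 18.7 kb inside the gene (7.56 and 11.5) and 2762 and 2604 bp upstream (10.8 and 4.43). BCL7A had no gene-end peak. Past its 3′ end lay separate peaks, 2193 bp away in ESC2 (9.20) and 1424 bp away in NSC1 (3.32), and ESC2 also had a peak 9.92 kb inside the gene (3.86). The zinc finger genes BCL11A and BCL11B, which act in neuron and lymphocyte development, each had a gene-end peak in 1 NSC library, BCL11A in NSC2 (7.58) and BCL11B in NSC1 (1.47). BCL11A also held NSC-only regions inside the gene at chr2:60516114-60516889 (5.65 and 10.4 in NSC1 and NSC2) and chr2:60530618-60531296 (6.82 and 7.31). The BCL11B locus was called in all 4 libraries. An upstream region, chr14:99274524-99275036, had peaks in NSC1, NSC2 and ESC2 (2.87, 6.03 and 2.40), and ESC1 had a peak 55.4 kb inside the gene (5.59).

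At SMARCB1, DPF2 and SS18L1 the NSC-only call was a peak at the 3′ end, beside another gene. Of the 9 NSC-only BAF subunit genes with a listed start, 6 had the peak at the 5′ end in both NSC libraries (66.7%) and these 3 at the 3′ end without a 5′ peak in both (33.3%). Among all 2668 NSC-only protein-coding genes with a listed start the shares were 95.1% and 4.39%. The stronger of the 2 summits of the SMARCB1 peak lay 1249 and 1311 bp past its 3′ end in NSC1 and NSC2, with the weaker summit inside the window (chr22:23838764-23839490, −log10 q of 16.0 and 7.15), and the stronger NSC1 summit was 252 bp from the nearer end of DERL3, a gene of protein degradation at the endoplasmic reticulum. In NSC2, SMARCB1 also had a peak 325 bp downstream of its start (5.13). The DPF2 summits lay 406 and 437 bp past its 3′ end (chr11:65354184-65354830, 7.14 and 6.61), 83 bp from the nearer end of TIGD3 in NSC1. The SS18L1 summits lay 461 and 641 bp past its 3′ end (chr20:62182788-62183255, 6.41 and 3.94), 53 bp from the start of MTG2, a mitochondrial ribosome assembly gene, in NSC1. In both NSC libraries the strongest summit of each of the 3 peaks was nearer to the neighbour than to the subunit gene.

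**Figure D4:**
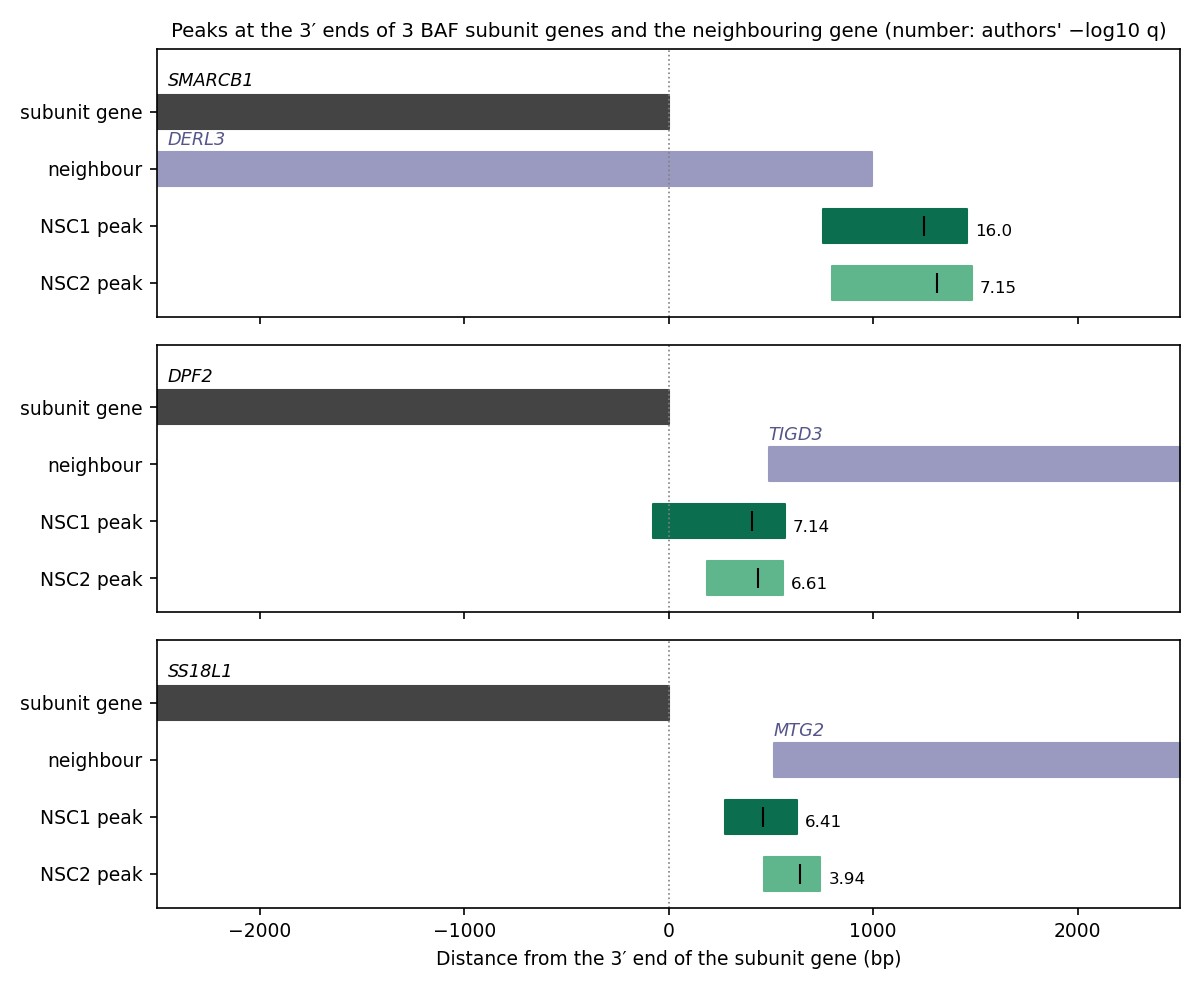
NSC1 and NSC2 peaks (green bars, summit as a black tick, authors' −log10 q beside) near the 3′ ends of SMARCB1, DPF2 and SS18L1, with the subunit gene in dark grey and the neighbouring gene in violet, against distance from the subunit gene's 3′ end in bp. All 6 strongest summits lie beyond the 3′ end, near DERL3, TIGD3 and MTG2.

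Counted over the whole locus, BAF45D was found at nearly all of these genes in NSC. The locus held a peak at 28 genes in NSC1 (90.3%, background 64.2%), 26 in NSC2 (83.9%, background 59.2%), 8 in ESC1 (25.8%, background 15.3%) and 15 in ESC2 (48.4%, background 43.4%). The locus was NSC-only at 12 genes (38.7%, background 19.7%), ESC-only at 0 (background 0.701%), called in all 4 libraries at 7 (22.6%, background 12.0%) and in none at 2, SMARCD3 and BRD9 (6.45%, background 25.9%). The other 10 loci had mixed patterns (32.3%, background 41.8%). Without ESC1, 13 loci were shared by all remaining libraries. A longer gene offers more room for a peak, and gene lengths in the list ran between 3.45 kb at ACTB and 435 kb at ARID1B.

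The loci held 77 peaks in NSC1, 56 in NSC2, 9 in ESC1 and 25 in ESC2, which merged into 98 regions. Of these, 35 were NSC-only (35.7%, against 30.6% of all merged regions), 1 was ESC-only (1.02%, against 1.65%) and 5 were called in all 4 libraries (5.10%, against 3.27%), and the other 57 had mixed patterns (58.2%, against 64.4%). Both NSC libraries called 18 regions at the subunit genes' own ends, of which 7 also had an ESC peak (38.9%), and 28 regions elsewhere in the loci, of which 4 did (14.3%). Over the loci of all protein-coding genes, 48.8% of 5806 such regions at an end of any of these genes and 12.4% of 6619 such regions elsewhere also had an ESC peak. Without NSC2, 62 regions were NSC-only, without ESC1, 10 were ESC-only and 11 shared, and without ESC2, 4 were ESC-only. Where both NSC libraries called a region, their summits were a median of 51.5 bp apart over 46 regions at these loci, against 43.0 bp over 17793 regions genome-wide.

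GGGCGG and ATTGG were about as common in the promoters of unbound as of bound BAF subunit genes. GGGCGG was in 22 of 26 BAF subunit promoters (84.6%, against 58.3% of 15812 promoters of the same length), in 9 of the 10 promoters that both NSC libraries called at the start and in 8 of the 10 with no start peak. ATTGG was in 10 of 26 (38.5%, against 36.4%), in 4 of those 10 called by both and in 4 of the 10 with none, and CCGGAAG, the core of ETS factor sites, in 2 (7.69%, against 14.1%). The median number of CG dinucleotides was 30.5 in the 10 promoters that NSC1 and NSC2 called at the start and 36.5 in the 10 with no start peak. Over all genes it was 27.0 in the 5707 promoters that NSC1 and NSC2 called and 11.0 in the 7903 with no start peak. Among BAF subunit promoters those without a peak thus had no fewer CG dinucleotides, while over all promoters they had fewer.

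Genes of other remodelling complexes were called about as often as the BAF genes in NSC, and more often in ESC2. The ISWI, CHD and NuRD, and INO80, SRCAP and TIP60 groups held 63 genes. Of these, 45 had a gene-end peak in NSC1 (background 42.8%) and 44 in NSC2 (background 38.1%). In ESC1 there were 11 (background 6.67%) and in ESC2 27 (background 22.8%), against 8 of 31 BAF genes in ESC2. Of the 63 genes, 15 were NSC-only (23.8%, background 16.2%) and 10 shared by all 4 libraries (15.9%, background 5.88%). The NSC-only genes that ranked highest in the NSC lists were YY1 (15.2 and 22.1 in NSC1 and NSC2), CHRAC1 (13.3 and 22.9), MORF4L1 (17.1 and 14.4), BAZ2B (10.5 and 24.3), YEATS4 (18.0 and 8.14) and MBD2 (11.7 and 8.69). SMARCA5, the ISWI ATPase, was called in all 4 libraries, with −log10 q of 47.6, 32.9, 16.7 and 42.2 in NSC1, NSC2, ESC1 and ESC2. MBTD1 (37.4, 31.6, 11.9 and 28.2), CHD8 (25.1, 19.6, 7.71 and 34.2) and UCHL5 (27.9, 15.1, 4.93 and 10.7) were also shared.

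Genes known to act on the subunit switch were also examined. In mouse, miR-9-3p and miR-124 repress Actl6a as neurons form, and REST, with its partner RCOR1, represses the genes of both miRNAs before that. The 3 human MIR9 genes give the same mature miRNAs, shown here from MIR9-3 (RefSeq, GRCh38.p14, plus strand) with the seed, bases 2 to 8, in capitals because it pairs with the target mRNA.
hsa-miR-9-5p, chr15:89368032-89368054: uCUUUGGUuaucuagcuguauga
hsa-miR-9-3p, chr15:89368071-89368092: aUAAAGCUagauaaccgaaagu
MIR9-3 was NSC-only, with summits 839 and 678 bp from its nearer end and −log10 q of 5.74 and 6.57 in NSC1 and NSC2. MIR9-2 was called in NSC1, NSC2 and ESC2 (11.3, 5.65 and 2.80), with the ESC2 peak at the opposite end of the gene from the NSC peaks. MIR9-1 and the 3 MIR124 genes had no gene-end peak in any library. REST was called in all 4 libraries (15.6, 4.07, 11.5 and 10.2 in NSC1, NSC2, ESC1 and ESC2), but not by peaks at 1 position. These NSC1 and NSC2 summits lay 425 and 502 bp inside the lower-coordinate end, and the ESC1 and ESC2 summits 224 and 334 bp outside it. The NSC peaks outside that end were weaker (6.85 and 3.46 in NSC1 and NSC2). RCOR1 was NSC-only at its ends (7.20 and 4.34), with an ESC2 peak 1870 bp outside the gene (2.87). The splicing regulator PTBP1, which miR-124 represses in mouse, was called in NSC1, NSC2 and ESC2 (11.7, 15.6 and 5.41), and its neuronal paralog PTBP2 in NSC1 alone (3.32).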

How the data were processed

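BAF45D CUT&Tag libraries of NSC and ESC were analysed from 1 deposited peak list each. The tools named for the reads were FastQC, Trimmomatic and the aligner BWA 0.7.12, with hg38 as build, per the submitters' processing notes. Each library's peaks came from MACS2 2.1.0.20150420 with no control sample. The q threshold was 0.05, with a shift of -100 bp and an extension of 200 bp, per the file headers. The authors deposited for each peak a pileup as a signal value, −log10 p and −log10 q values, and a fold ratio over the local background, all computed within that library. An untargeted-antibody control was not analysed here. Strengths were used within 1 list only, and comparisons between libraries rest on whether a peak was listed. A missing peak means only that the threshold was not passed.

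Entries with the same start and end were joined, with the highest −log10 q and its summit kept, and chromosomes 1 to 22 and X were used. Gene positions came from a RefSeq table of GRCh38.p14, and strand and starts from RefSeq promoter sequences, which listed 26 of the 31 BAF subunit genes. A gene was called when a peak overlapped its window by at least 1 bp. Overlapping peaks of the 4 libraries were merged into regions. Motifs were searched as printed on both strands, and matches of different motifs may overlap.

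The genes and lists were chosen with earlier results of these data known, so no list was tested. Every BAF subunit gene is named. Of the other remodelling genes, up to 6 NSC-only genes by mean rank of −log10 q in the NSC lists and up to 4 shared by all libraries are named. Alternatives were windows of 500 bp and 2.5 kb, the 5′ end alone, other locus flanks, −log10 q of at least 5, equal list length, the summit in place of the peak, and leaving out each library. Python 3.11.15, pandas 2.3.3, numpy 2.4.6 and scipy 1.17.1 were used, and the calling of genes and regions was tested on simulated data.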

Additional observations from a re-analysis of the deposited data

How the results depend on the processing

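The direction, more BAF subunit genes called at gene ends in each NSC library than in either ESC library, held for every gene-end window and q threshold tried and was lost at equal list length. There, gene ends gave 4 genes in NSC1 and 3 in NSC2, and 1 NSC-only, 2 ESC-only, 1 shared by all 4 libraries and 22 with no peak, the loci gave 2, 2, 1 and 13 in the same order, and the regions gave 3 NSC-only, 2 ESC-only and 2 shared. With 500 bp windows, 2 genes were shared and 2 were called in ESC1, and with 2.5 kb windows 4 had no peak. At the 5′ end alone, 14, 12, 1 and 4 genes were called in NSC1, NSC2, ESC1 and ESC2, with 6 NSC-only and 1 shared. Without flanks, 2 loci were shared and 9 had no peak. At −log10 q of at least 5, 2 genes were shared at gene ends, 13 had no peak and 2 were called in ESC1, 2 loci were shared, and 20 regions were NSC-only, 0 ESC-only and 2 shared. Leaving out 1 library at a time gave, at gene ends, 10 to 14 NSC-only genes, 0 ESC-only, 4 to 8 shared and 7 to 11 with no peak. It gave 12 to 18 NSC-only loci, 0 to 1 ESC-only, 7 to 13 shared and 2 to 3 with no peak, and 35 to 62 NSC-only regions, 1 to 10 ESC-only and 5 to 11 shared. SMARCD3, BRD9, ACTL6B and DPF1 kept their gene-end class in all settings, and counting summits in place of whole peaks changed no gene's class. No paired analysis was possible because the labels link no NSC library to an ESC library. The results are counts of peaks present or absent and come from no test. The depth of a single call is set by pileups as low as 4 reads in the NSC lists and 7 in the ESC lists.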
